A study of Homo sapiens with 6 samples.

Results

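Ribosomes are built in the nucleolus, and 38 genes that encode proteins of this process were followed here across all 6 libraries of MM1.S cells. The genes were written down by name for their roles in rRNA synthesis, rRNA processing and subunit assembly, and as established targets of the transcription factor MYC. Earlier results of these data were known when the list was written, so it is not independent of them. All 38 were listed, among 11048 gene symbols in all. MM1.S is a human multiple myeloma line, a malignancy of plasma cells. Its cells were held for 6 h with the DMSO vehicle, with 3 µM CCF642 or with 3 µM CCF642-34, and 2 libraries of polyA RNA were sequenced for each of the 3 groups. CCF642 and its analogue CCF642-34 inhibit the protein disulfide isomerase PDIA1, and the question was how the expression profiles of the compounds differ. All values come from 1 cell line, 1 dose and 1 time, and both compounds were compared with the same DMSO libraries. The labels do not say whether the libraries of a group came from separate cultures. The spread behind the p values is that between these libraries, pooled largely over genes, and may be technical.

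The recovered totals ran from 20567313 to 28459677 reads per library. Levels are the deposited CPM values, the reads of a gene relative to the total of its library. Differences are log2 fold changes of CPM + 1 after scaling with edgeR's TMM factors, tested with limma, with Benjamini-Hochberg adjustment across all 11048 genes. A gene was called at an adjusted p under 0.05. The test takes most of its estimate of spread from genes of similar level (3 residual and 42.9 prior degrees of freedom). An alternative, the gene-wise linear model, uses the spread of each gene alone. Each of 9 plasma cell markers was listed, from CD38 at 36.8 and 38.1 CPM to JCHAIN at 4316 and 4321 CPM with DMSO. Against DMSO these markers moved in both directions. SDC1 (−1.67 with CCF642 and −1.12 with CCF642-34), JCHAIN, TNFRSF17, MZB1 and CD38 were called lower with both compounds. IRF4 (0.90 and 1.11) and SLAMF7 were called higher with both, and PRDM1 and XBP1 were called higher with CCF642 only. Of 11 markers of T, myeloid, erythroid and epithelial cells, 8 were not listed, and the other 3 (CD3E, HBB and EPCAM) summed to between 6.03 and 6.39 CPM with DMSO, 6.64 and 7.34 CPM with CCF642, and 8.53 and 9.14 CPM with CCF642-34. Their part in the results was not tested. In bulk RNA, fewer cells that express a gene and less of its RNA per cell cannot be told apart.

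As background, RNA polymerase I transcribes the rRNA precursor in the nucleolus, small nucleolar ribonucleoproteins (snoRNPs) modify it, and the small subunit processome and the 60S assembly factors cut, fold and pack it with ribosomal proteins. MYC binds DNA with its partner MAX at the E-box CACGTG and raises transcription of many of these genes. Myeloma cells secrete large amounts of immunoglobulin and depend on a high rate of protein synthesis.

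The E-box was therefore looked for in the promoters of the 38 genes. RefSeq windows on GRCh38.p14, from 250 bases before to 50 bases after an annotated start, were at hand for 30 of the genes. The palindrome CACGTG, which reads alike on both strands, was found for 13 of these 30 genes (43.3%), against 12.9% of the 8871 listed genes with a window and 8.77% of all 27305 genes in the table. Of the 37 windows of these genes, 12 (32.4%) held it within 50 bases of the start, against 3.84% of the windows of listed genes. Since the list was written to hold MYC targets, higher shares can follow from that choice and are not a result of these data. The windows below show the motif in capitals within 30 bases of the gene's own strand, for 9 genes that run from UTP20, which fell, to DDX21, which rose. RRS1 and RRP12, at the ends of the range described later, had no window.
UTP20: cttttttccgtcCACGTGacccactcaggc
BYSL: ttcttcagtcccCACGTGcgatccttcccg
PNO1: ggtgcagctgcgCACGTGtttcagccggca
NOP2: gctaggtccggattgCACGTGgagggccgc
LYAR: cggcggcgagtcCACGTGctccccgcggcc
RRP9: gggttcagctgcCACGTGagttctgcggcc
FBL: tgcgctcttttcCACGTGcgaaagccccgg
WDR43: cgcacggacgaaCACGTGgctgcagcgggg
DDX21: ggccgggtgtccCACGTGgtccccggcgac

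The plus strand holds the windows of UTP20 (chr12:101280083-101280112), BYSL (chr6:41921515-41921544), PNO1 (chr2:68157885-68157914), WDR43 (chr2:28894658-28894687) and DDX21 (chr10:68956604-68956633). The minus strand holds those of NOP2 (chr12:6568242-6568271), LYAR (chr4:4290068-4290097), RRP9 (chr3:51941892-51941921) and FBL (chr19:39846356-39846385). Counted from the annotated start without a position 0, the first base of the motif lay at −10 in UTP20, at −5 in RRP9, at 4 in WDR43 and at 36 in NOP2. The other genes with the motif were GNL3, MYBBP1A, NOP14 and PES1. A match gives these letters only and does not show that MYC was bound.

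With CCF642, 23 of the 38 genes (60.5%) were lower than with DMSO, 7 (18.4%) were higher and 8 were not called. Over all genes, 63.1% were called, 31.3% lower and 31.8% higher. The median log2 fold change of the 38 genes was −0.23, a decrease of 14.9%, with a range from −1.22 to 0.92, whereas the median over all genes was −0.0066. With CCF642-34, 22 genes (57.9%) were lower, 7 (18.4%) were higher and 9 were not called, where 57.6% of all genes were called, 27.9% lower and 29.7% higher. The median was −0.24, a decrease of 15.0%, with a range from −1.05 to 0.61, and that over all genes was 0.0067. After TMM scaling, each compound had both libraries below both DMSO libraries for 26 genes, above them for 9 genes and overlapping them for 3 genes. Over all genes, 40.3% lay fully below DMSO and 39.1% fully above it with CCF642, and 39% and 39.9% did so with CCF642-34.

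The 38 genes together held 0.687% and 0.688% of the reads in the DMSO libraries, 0.567% and 0.583% with CCF642, and 0.585% and 0.594% with CCF642-34. The shares of the 4 treated libraries were all below those of the DMSO libraries. They are relative to library totals, without TMM scaling. The TMM factors were 1.054 and 1.053 (DMSO), 0.962 and 0.957 (CCF642), 0.987 and 0.992 (CCF642-34). Dividing by such factors narrows the gap, so part of the lower share depends on the scaling. NCL (1216 and 1203 CPM in DMSO libraries) and NPM1 (1155 and 1165 CPM) weigh most in the sum. After TMM scaling NPM1 was not lower than DMSO by call with either compound. Since both comparisons use the same DMSO libraries, calls made with both compounds are not separate evidence. PES1, UTP15, DDX10, NOP14 and PPAN were called with neither compound. Most changes were small. At least 2-fold decreases with an unadjusted p under 0.05 were those of RRS1 and RRP1B with CCF642 and of RRS1 with CCF642-34, and 0 genes rose by as much. Over all genes, 1.99% fell and 4.5% rose by this criterion with CCF642, and 1.29% fell and 2.59% rose with CCF642-34. It was missed by RRP1B without CCF642 replicate 1 (−0.96), and by RRS1 with CCF642-34 without DMSO replicate 2 (−0.99) or CCF642-34 replicate 2 (−0.94).

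**Figure D1:**
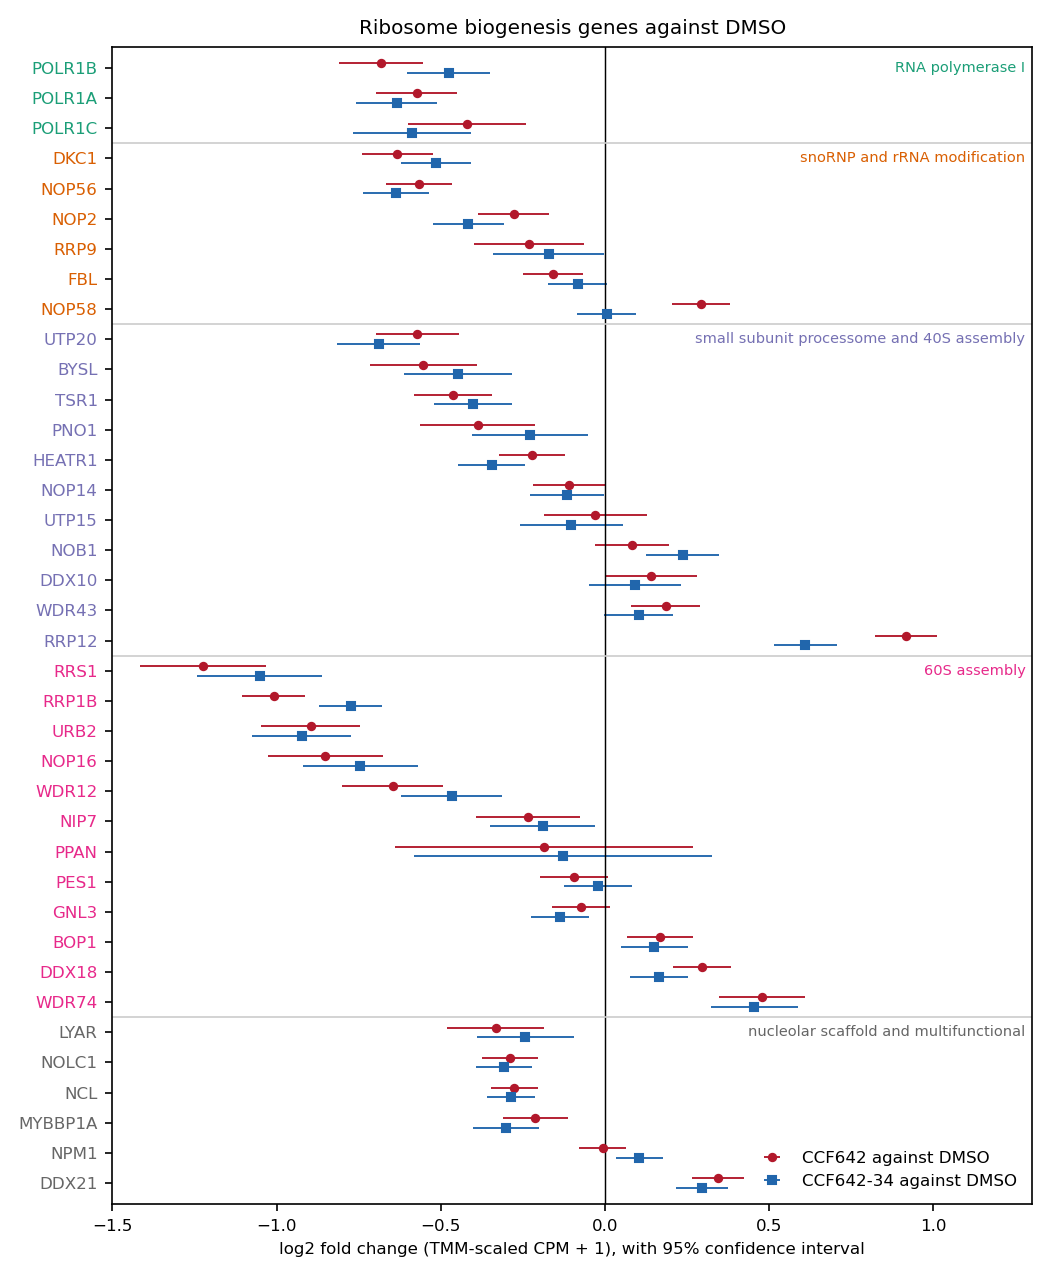
Log2 fold changes against DMSO of the 38 genes by role, with CCF642 as circles and CCF642-34 as squares; bars are 95% confidence intervals. Most points lie left of 0, the lowest being RRS1 (−1.22 and −1.05), and the rightmost is RRP12 (0.92 and 0.61).

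The 3 listed subunits of RNA polymerase I fell with both compounds. Their median log2 fold change was −0.57 with CCF642 and −0.59 with CCF642-34. POLR1A encodes the largest subunit of the enzyme and POLR1B the second largest, which together form its catalytic core, while the POLR1C protein is also part of RNA polymerase III. POLR1A was at 94.9 and 98.7 CPM with DMSO, 56.8 and 61.2 CPM with CCF642, and 57.6 and 58.9 CPM with CCF642-34. Its log2 fold change was −0.57 (SE 0.061, adjusted p = 2.53e-11) with CCF642 and −0.63 (adjusted p = 1.79e-12) with CCF642-34. POLR1B was at 96.6 and 97.0 CPM with DMSO, 51.0 and 58.4 CPM with CCF642, and 65.3 and 64.9 CPM with CCF642-34. Every treated library was below both DMSO libraries, and the lowest were those of CCF642. The log2 fold change of POLR1B was −0.68 (SE 0.063, adjusted p = 3.25e-13) with CCF642 and −0.48 (adjusted p = 9.78e-09) with CCF642-34. POLR1C was at 35.4 and 33.9 CPM with DMSO, 24.6 and 22.1 CPM with CCF642, and 20.3 and 22.4 CPM with CCF642-34, with log2 fold changes of −0.42 (adjusted p = 7.16e-05) and −0.59 (adjusted p = 2.32e-07). For all 3 genes the treated libraries lay below both DMSO libraries, while for POLR1A those of the compounds overlapped.

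Of the 6 genes of snoRNPs and rRNA modification, 5 fell and 1 rose with CCF642, and 3 fell and none rose with CCF642-34. The medians were −0.26 and −0.29. FBL, NOP56 and NOP58 encode core proteins of the box C/D snoRNPs, in which fibrillarin (FBL) is the 2′-O-methyltransferase, and these 3 genes moved apart. NOP56 was at 186 and 190 CPM with DMSO, 113 and 118 CPM with CCF642, and 109 and 117 CPM with CCF642-34. Its log2 fold change was −0.57 (SE 0.050, adjusted p = 8.67e-14) with CCF642 and −0.64 (adjusted p = 2.82e-15) with CCF642-34. NOP58 was at 213 and 210 CPM with DMSO, 237 and 235 CPM with CCF642, and 195 and 204 CPM with CCF642-34. Both CCF642 libraries thus lay above DMSO for NOP58 (log2 fold change 0.29, SE 0.044, adjusted p = 1.49e-07). With CCF642-34 the libraries overlapped those of DMSO after TMM scaling, and the value was 0.0051 (adjusted p = 0.931) and below 0 with library size alone (−0.085). FBL fell with CCF642 (−0.16) and was at −0.083 (adjusted p = 0.11) with CCF642-34.

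DKC1 encodes dyskerin, the pseudouridine synthase of the box H/ACA snoRNPs. It was at 152 and 147 CPM with DMSO, 86.0 and 89.1 CPM with CCF642, and 94.9 and 101 CPM with CCF642-34, so that the groups were apart in each comparison with DMSO. The log2 fold changes of DKC1 were −0.63 (SE 0.053, adjusted p = 1.6e-14) and −0.51 (adjusted p = 1.38e-11). NOP2, an rRNA cytosine methyltransferase, fell by 0.28 and 0.42 on the log2 scale. RRP9, a protein specific to the U3 snoRNP, fell with CCF642 (−0.23, adjusted p = 0.0138) and was at −0.17 (adjusted p = 0.0737) with CCF642-34. The decrease of RRP9 with CCF642 was not called without DMSO replicate 1 (−0.21) or CCF642 replicate 2 (−0.17). Nor was it called in the gene-wise linear model (adjusted p = 0.128).

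**Figure D2:**
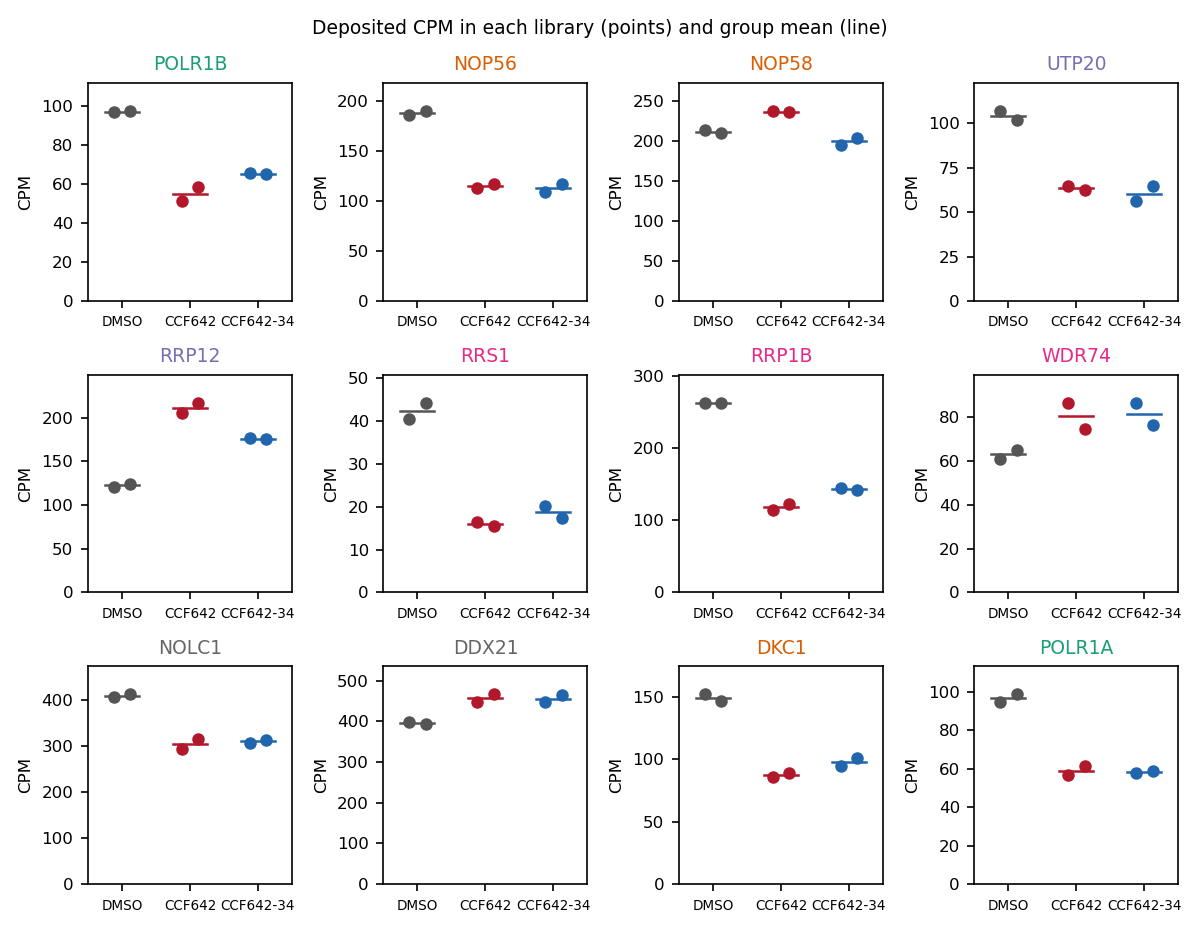
CPM of 12 of the genes in each of the 6 libraries (points) with the group mean (line), from 0 on each axis. The DMSO points lie highest for POLR1B, NOP56, UTP20, RRS1, RRP1B, NOLC1, DKC1 and POLR1A and lowest for RRP12, WDR74 and DDX21.

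Among the 11 genes of the small subunit processome and 40S assembly, 5 fell and 2 rose with each compound, with medians of −0.11 and −0.12. UTP20 encodes a large scaffold protein of the processome. Its levels were 107 and 102 CPM with DMSO, 64.6 and 62.7 CPM with CCF642, and 56.3 and 64.8 CPM with CCF642-34, below DMSO in all 4 treated libraries. UTP20 had log2 fold changes of −0.57 (SE 0.062, adjusted p = 4.68e-11) and −0.69 (adjusted p = 2.36e-13). BYSL (−0.55 and −0.45), a factor that binds the maturing 40S particle, also fell with both compounds. So did TSR1 (−0.46 and −0.40), which blocks early entry of that particle into translation, and PNO1 (−0.39 and −0.23), the partner of the NOB1 nuclease. The last of the 5 was HEATR1 (−0.22 and −0.35), a processome protein also needed for rRNA transcription. The HEATR1 call with CCF642 was lost in the gene-wise linear model (adjusted p = 0.0639). The PNO1 call with CCF642-34 (adjusted p = 0.0235) was lost without either DMSO library and without either CCF642-34 library, with log2 fold changes from −0.24 to −0.22.

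RRP12 went the other way and rose most of the 38 genes with each compound. The protein is an export and maturation factor of the pre-ribosome. RRP12 was at 121 and 124 CPM with DMSO, 206 and 217 CPM with CCF642, and 177 and 175 CPM with CCF642-34, without overlap between any of the groups. Its log2 fold change was 0.92 (SE 0.047, adjusted p = 3.32e-22) with CCF642 and 0.61 (adjusted p = 1.57e-15) with CCF642-34. In GENCODE release 29 the gene lies on the minus strand of chromosome 10 from 97356358 to 97426076 (GRCh38) and overlaps no other protein-coding gene. NOB1, the nuclease that makes the 3′ end of 18S rRNA, rose with CCF642-34 (0.24, adjusted p = 0.000326). With CCF642 it was at 0.083 (adjusted p = 0.194), and at −0.050 with library size alone. WDR43, a processome protein, rose with CCF642 (0.19, adjusted p = 0.00191), a call lost with library size alone (0.052), and was at 0.10 (adjusted p = 0.0859) with CCF642-34. Values that passed with neither compound were those of NOP14 (−0.11 and −0.12), UTP15 (−0.030 and −0.10) and DDX10 (0.14 and 0.091).

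The 12 genes of 60S assembly had the widest spread of the 5 roles, with 6 lower and 3 higher with CCF642 (median −0.21) and 7 lower and 3 higher with CCF642-34 (median −0.16). RRS1 encodes a protein that brings the 5S ribonucleoprotein into the pre-60S particle. It was at 40.6 and 44.3 CPM with DMSO, 16.5 and 15.5 CPM with CCF642, and 20.2 and 17.3 CPM with CCF642-34. The highest treated library of RRS1 lay well below the lower DMSO library, with log2 fold changes of −1.22 (SE 0.095, adjusted p = 9.34e-16) and −1.05 (adjusted p = 2.01e-13). RRS1 lies on the plus strand of chromosome 8 from 66429028 to 66430733 in the same annotation. The protein-coding gene AC009879.2 overlaps it on the same strand, so how the reads of RRS1 were assigned is uncertain. RRP1B is a nucleolar protein of rRNA processing, found on the plus strand of chromosome 21 from 43659548 to 43696079. RRP1B was at 263 and 263 CPM with DMSO, 115 and 123 CPM with CCF642, and 145 and 143 CPM with CCF642-34. Its log2 fold changes were −1.01 (SE 0.048, adjusted p = 1.14e-23) and −0.77 (adjusted p = 4.89e-19), and the 3 groups did not overlap. URB2 (−0.90 and −0.92) and NOP16 (−0.85 and −0.74), both factors of the early pre-60S particle, also fell.

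PES1, BOP1 and WDR12 encode the PeBoW complex, which is needed for rRNA processing of the large subunit, and only WDR12 fell. WDR12 was lower with CCF642 (−0.65, adjusted p = 3.95e-10) and with CCF642-34 (−0.47, adjusted p = 9.55e-07). PES1 was at −0.095 (adjusted p = 0.104) and −0.021 (adjusted p = 0.755). BOP1 was higher with both (0.17 and 0.15), but neither call held with library size alone (0.035 and 0.061). Both calls were also lost without DMSO replicate 2 (0.13 and 0.11), and that with CCF642-34 without its replicate 1 (0.11). In the gene-wise linear model BOP1 was called with neither compound (adjusted p = 0.0937 and 0.125). With library size alone PES1 was called lower with CCF642 (−0.23).

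WDR74, which acts with an ATPase on the pre-60S particle, was at 60.9 and 65.0 CPM with DMSO, 86.2 and 74.6 CPM with CCF642, and 86.5 and 76.6 CPM with CCF642-34. All 4 treated libraries were above DMSO, and the log2 fold changes of WDR74 were 0.48 (SE 0.066, adjusted p = 1.6e-08) and 0.46 (adjusted p = 6.26e-08). Neither call held in the gene-wise linear model (adjusted p = 0.0551 and 0.0682). TEX54 overlaps WDR74 on the same strand, so how the reads of WDR74 were assigned is uncertain. DDX18, a nucleolar RNA helicase, rose by 0.30 and 0.16, the latter not called with library size alone (0.075). NIP7, an rRNA processing factor, fell (−0.23 and −0.19), but its calls were lost without DMSO replicate 1 (−0.20 and −0.16), without CCF642 replicate 2 (−0.13 for CCF642) and, for CCF642-34, without DMSO replicate 2 (−0.22) or either CCF642-34 library (−0.22 and −0.16). Neither NIP7 call held in the gene-wise linear model (adjusted p = 0.139 and 0.209). GNL3, which encodes nucleostemin, was at −0.072 (adjusted p = 0.15) with CCF642 and fell with CCF642-34 (−0.14, adjusted p = 0.00642). That GNL3 call was lost without DMSO replicate 2 (−0.12), without CCF642-34 replicate 1 (−0.10) and in the gene-wise linear model (adjusted p = 0.0712). PPAN had few reads, at 1.13 and 2.34 CPM with DMSO, 1.12 and 1.33 CPM with CCF642, and 1.37 and 1.33 CPM with CCF642-34. The libraries of PPAN overlapped in both comparisons. Its gene is overlapped on the same strand by the readthrough gene PPAN-P2RY11, so how its reads were assigned is uncertain.

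The 6 nucleolar scaffold and multifunctional genes included 4 that fell and 1 that rose with CCF642, and 4 that fell and 2 that rose with CCF642-34. LYAR, a nucleolar zinc finger protein, was at 48.8 and 47.7 CPM with DMSO, 35.0 and 34.4 CPM with CCF642, and 37.2 and 39.1 CPM with CCF642-34. Its log2 fold changes were −0.33 (SE 0.074, adjusted p = 0.000119) and −0.24 (adjusted p = 0.00439), the latter not called without DMSO replicate 1 (−0.23). NOLC1, a nucleolar protein that binds snoRNPs, was at 405 and 412 CPM with DMSO, 294 and 315 CPM with CCF642, and 306 and 313 CPM with CCF642-34. For NOLC1 the groups were apart from DMSO, with log2 fold changes of −0.29 (SE 0.042, adjusted p = 5.47e-08) and −0.31 (adjusted p = 1.71e-08). NCL (nucleolin, −0.28 and −0.29) and MYBBP1A (a nucleolar transcription regulator, −0.21 and −0.30) also fell. The MYBBP1A call with CCF642 was lost in the gene-wise linear model (adjusted p = 0.0762).

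DDX21, a helicase that links RNA polymerase I transcription with rRNA processing, was higher in every treated library. It was at 397 and 393 CPM with DMSO, 449 and 466 CPM with CCF642, and 448 and 464 CPM with CCF642-34, with log2 fold changes of 0.34 (SE 0.039, adjusted p = 1.51e-10) and 0.30 (adjusted p = 1.02e-08). NPM1 (nucleophosmin), a histone and ribosomal protein chaperone, was at 1155 and 1165 CPM with DMSO, 1027 and 1078 CPM with CCF642, and 1158 and 1186 CPM with CCF642-34. With CCF642 its log2 fold change was −0.0064 (adjusted p = 0.888) after TMM scaling and −0.14 (adjusted p = 0.000463) with library size alone, which called NPM1 lower. With CCF642-34 NPM1 was higher (0.10, adjusted p = 0.0106), but library size alone gave 0.015 and no call. The call was also lost without either DMSO library (0.098 and 0.11), without CCF642-34 replicate 2 (0.093) and in the gene-wise linear model (adjusted p = 0.105). The annotation names 45 pseudogenes of NPM1, so its reads could have been split among near-identical copies.

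The compounds were then compared directly at their shared dose and time, in 1 pair of groups across all genes. Of the 38 genes, 4 were higher with CCF642-34 than with CCF642 (10.5%, against 15.9% of all genes), 4 were lower (10.5%, against 17.4%) and 30 were not called, where 33.4% of all genes were called. The median log2 fold change was −0.014 and the range ran from −0.31 to 0.24. The criterion of 2-fold with an unadjusted p under 0.05 was met by 0 of the 38 genes, against 0.299% of all genes lower and 0.00905% higher with CCF642-34. After TMM scaling, the libraries of CCF642-34 lay above both CCF642 libraries for 12 genes and below them for 11, where 32.4% and 31% of all genes did so, and overlapped them for 15. RRP12 was lower with CCF642-34 (−0.31, 95% confidence interval −0.40 to −0.21, adjusted p = 1.23e-06), as was NOP58 (−0.29, interval −0.38 to −0.20, adjusted p = 1.21e-06). RRP1B was higher with CCF642-34 (0.24, interval 0.14 to 0.33, adjusted p = 0.000123). These 3 differences were called whichever library was left out, but the gene-wise linear model called only that of NOP58 (adjusted p = 0.0528 for RRP12 and 0.086 for RRP1B). RRP12 and RRP1B were both nearer to DMSO with CCF642-34, from opposite sides.

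POLR1B was also higher with CCF642-34 (0.21, interval 0.079 to 0.33, adjusted p = 0.00938). This call was lost without CCF642 replicate 1 (0.11) and without CCF642-34 replicate 1 (0.199) or replicate 2 (0.215). It was also lost in the gene-wise linear model (adjusted p = 0.22). NPM1 (0.11, adjusted p = 0.0128), NOB1 (0.15, adjusted p = 0.0303), DDX18 (−0.13, adjusted p = 0.0161) and NOP2 (−0.14, adjusted p = 0.0437) were the remaining calls. Each of these was lost in some fits without 1 library. The values were 0.073 for NPM1 without CCF642 replicate 1, 0.14 for NOB1 and −0.11 for DDX18 without CCF642-34 replicate 1, and −0.10 for NOP2 without CCF642-34 replicate 2. NOP2 and NOB1 lost their calls without either DMSO library, without CCF642 replicate 2 and without either CCF642-34 library. They were also lost with DESeq2 on recovered reads (adjusted p = 0.0702 and 0.0748). In the gene-wise linear model NPM1, DDX18 and NOP2 were not called (adjusted p = 0.156, 0.0885 and 0.169). The 30 genes that were not called were not thereby shown to respond alike. Leaving PPAN aside, their 95% confidence intervals lay between −0.35 (POLR1C) and 0.36 (RRS1), and that of PPAN ran from −0.40 to 0.51.

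**Figure D3:**
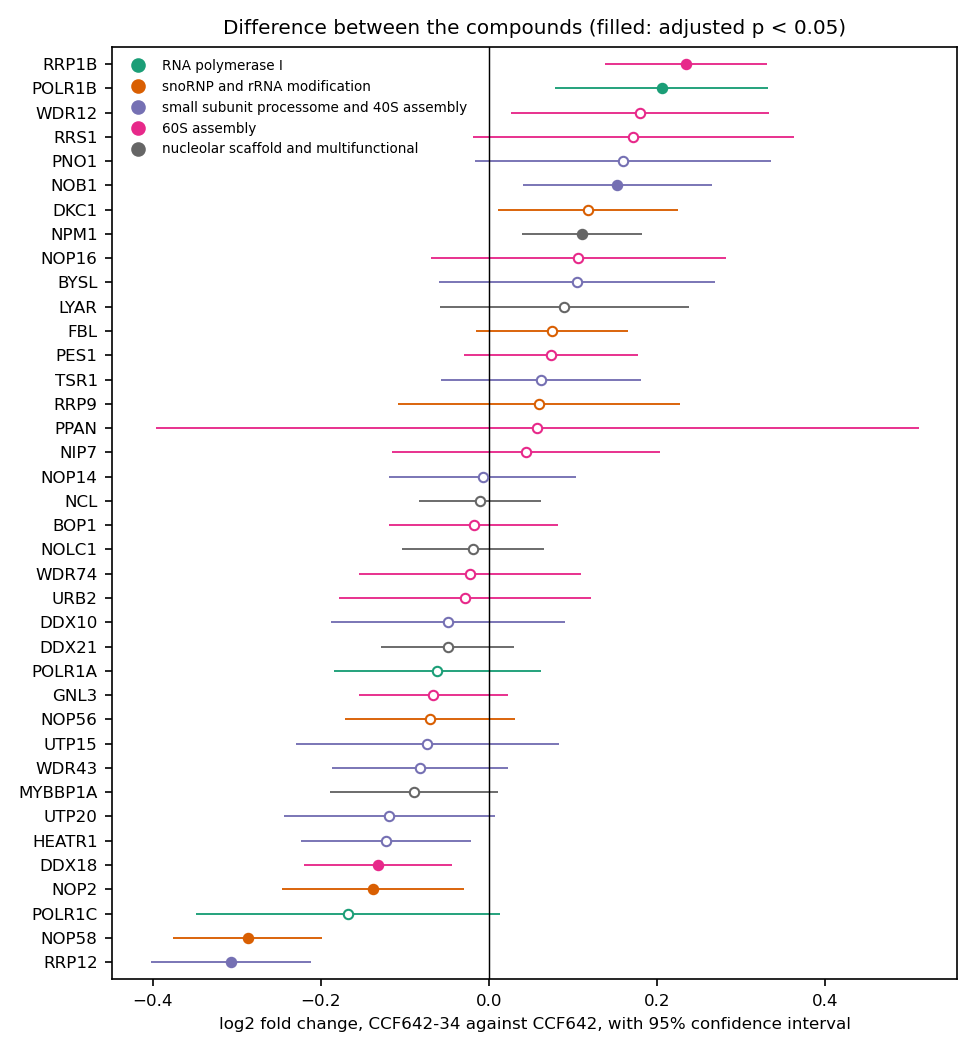
Log2 fold changes with CCF642-34 against CCF642 for the 38 genes, with 95% confidence intervals; filled points have an adjusted p under 0.05. The genes spread from −0.31 (RRP12) to 0.24 (RRP1B), with 8 filled points and 30 open ones.

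MYC itself was measured in the same libraries and differed between the compounds. It was at 452 and 465 CPM with DMSO, 99.4 and 103 CPM with CCF642, and 181 and 180 CPM with CCF642-34. Both groups were far below DMSO and did not overlap each other. MYC had a log2 fold change of −2.04 (adjusted p = 2.37e-37) with CCF642, −1.25 (adjusted p = 2.75e-28) with CCF642-34, and 0.79 (adjusted p = 1.77e-19) in the direct comparison, where the median of the 38 genes was −0.014. Genes with and without an E-box in the promoter window were then set side by side. With CCF642, 8 of the 13 genes with the motif and 11 of the 17 without it were called lower (medians −0.21 and −0.28), and with CCF642-34 the counts were 7 and 11 (medians −0.17 and −0.34). The 8 genes with no window had medians of −0.060 and −0.15, with 4 called lower with each compound. These shares are a description over few genes and were not tested. A gene counted as without the motif can hold CACGTG outside its window, where it was not looked for.

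Some of these genes also carry snoRNAs in their introns, which are released from the spliced transcript. In GENCODE release 29, 8 of the 38 genes (21.1%) contained 27 snoRNAs on their own strand, against 191 of 10880 listed protein-coding genes (1.76%). They were GNL3, NOP56, NOP58, NCL, WDR43, DKC1, TSR1 and PPAN. The medians of the 8 host genes were −0.23 with CCF642 and −0.21 with CCF642-34, beside −0.23 and −0.24 for the other 30 genes. The snoRNAs themselves are not polyadenylated and were not analysed here. In the same annotation 16 of the 38 genes overlapped another protein-coding gene, 4 of them (NOP2, RRS1, PPAN and WDR74) on the same strand. Whether counting used the strand is not given in the sources used here, so reads from such overlaps cannot be told apart.

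A wider list of 126 other genes of ribosome biogenesis was compared in the same way, of which 117 were listed. With CCF642, 44 of the 117 (37.6%) were lower and 38 (32.5%) higher, with a median of −0.057. With CCF642-34, 44 (37.6%) were lower and 32 (27.4%) higher, with a median of −0.065. These shares lie nearer to those over all genes than the shares of the 38 genes do, and the difference between the lists was not tested.

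**Figure D4:**
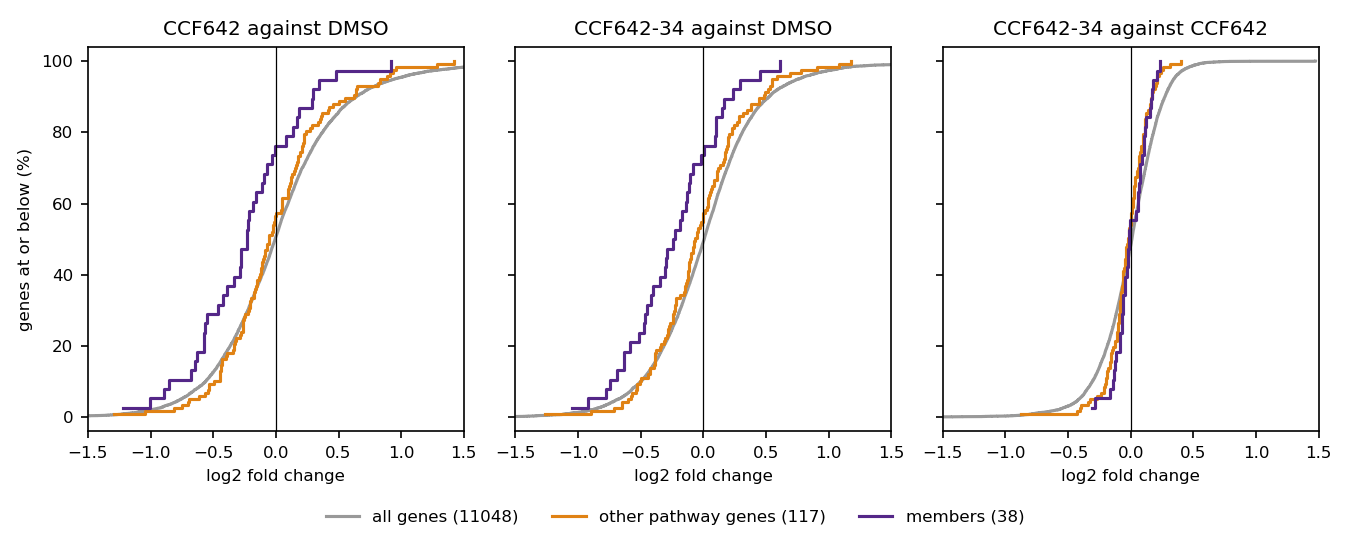
Cumulative share of genes (%) at or below each log2 fold change in the 3 comparisons, for the 38 genes, the 117 other pathway genes and all 11048 genes; values beyond 1.5 on either side are not drawn. Against DMSO the curve of the 38 genes lies left of the others (medians −0.23 and −0.24), and between the compounds the 3 curves cross near 0.

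Within the wider list, genes of RNA polymerase I moved in both directions. CD3EAP, a subunit also called POLR1G, was at 9.05 and 8.04 CPM with DMSO, 2.19 and 3.05 CPM with CCF642, and 2.53 and 3.02 CPM with CCF642-34. Its log2 fold changes were −1.30 (adjusted p = 7.56e-09) and −1.26 (adjusted p = 1.94e-08), and its gene overlaps ERCC1 and PPP1R13L on the opposite strand. UBTF, which encodes the polymerase I factor UBF, was at 208 and 200 CPM with DMSO, 91.4 and 87.6 CPM with CCF642, and 106 and 99.8 CPM with CCF642-34. UBTF fell by 1.05 and 0.90 on the log2 scale (adjusted p = 4.68e-23 and 3.19e-20). POLR1E, another subunit of the enzyme, rose instead. It was at 55.3 and 58.3 CPM with DMSO, 141 and 140 CPM with CCF642, and 78.4 and 78.8 CPM with CCF642-34. The increase of POLR1E was 1.43 (adjusted p = 7.7e-27) with CCF642 and 0.55 (adjusted p = 9.23e-12) with CCF642-34, and its direct difference of −0.87 (interval −0.99 to −0.76, adjusted p = 1.42e-17) was the widest of the 117 genes.

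ZNF622, a late 60S factor, rose by 1.29 with CCF642 and 1.18 with CCF642-34. It was at 39.4 and 42.1 CPM with DMSO and between 84.2 and 95.9 CPM in the 4 treated libraries. RSL24D1, which holds the place of a ribosomal protein in the pre-60S particle, rose by 0.96 and 1.08, from 130 and 128 CPM to 226 and 234 CPM with CCF642 and 246 and 271 CPM with CCF642-34. Of the RNA exosome, which trims rRNA precursors, EXOSC1 rose with CCF642 (0.83) and CCF642-34 (0.91) and EXOSC2 fell with both (−0.81 and −0.65). The processome gene WDR3 also fell with both (−0.75 and −0.72). Besides POLR1E, the direct comparison put DIS3 (−0.43), the catalytic exosome subunit, and MDN1 (−0.41), the ATPase that remodels pre-60S particles, lower with CCF642-34. EXOSC4 (0.40), NHP2 (0.31), a protein of the box H/ACA snoRNPs, and RPF1 (0.26), a 60S factor, were higher.

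Calls with small fold changes depended on the scaling. With library size alone the median over all genes was −0.13 for CCF642 and −0.078 for CCF642-34, and that of the 38 genes was −0.36 and −0.32, so both had shifted down together. Under that scaling NOP14 was called lower with both compounds, PES1, GNL3 and NPM1 with CCF642, and FBL, RRP9 and UTP15 with CCF642-34. All 23 and 22 decreases were also called with library size alone and with DESeq2's size factors, as were 5 and 4 of the 7 increases with each compound. Library size alone moved values down against DMSO, and DESeq2's size factors were close to the TMM factors. Neither scaling could thus readily remove a decrease, so that the decreases were kept is not a test of them.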

How the data were processed

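Libraries of polyA RNA were made from oligo(dT)-enriched mRNA with random hexamer primers. The authors deposited values that were taken as CPM from the values themselves, since no source states their unit. The submitters' processing notes name STAR, edgeR 3.24.3, limma 3.38.3 and hg19, while the counting tool and annotation are not given in the sources used here. The highest value of every listed gene was at least 1.5 CPM, so lower genes had been left out. All CPM values (100%) were within 0.02 of a whole read, and the recovered reads served for count tests as alternatives. Here limma (3.58.1, R 4.3.3) was fitted with a mean-variance trend to log2(TMM-scaled CPM + 1) of all 3 groups with no block for replicates (3 residual and 42.9 prior degrees of freedom). TMM factors came from edgeR (4.0.16). Tests were two-sided, and adjusted p values are Benjamini-Hochberg values over 11048 genes. The log2(CPM + 1) scale understates changes of low genes. Scripts were tested on simulated data.

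The 38 genes, the roles, the wider list and the marker lists were written by hand from general knowledge, with earlier results of these data known. Values in every library are given, by rule, for the highest and lowest gene of each role with each compound and the gene of each role that differed most between the compounds. In the wider list the 3 largest increases and decreases of each comparison are named. Alternatives were DESeq2's (1.42.0) size factors, library size alone, a pseudocount of 0.5 or 2, only genes with a mean CPM of 5 or more, edgeR's quasi-likelihood test, DESeq2 and limma-voom on recovered reads, a gene-wise linear model, a replicate block, only the 2 groups compared, and each library left out. Where both libraries of a group had 50 or more reads on a gene, their squared difference averaged 2.29 (DMSO), 4.64 (CCF642) and 4.05 (CCF642-34) times that of counting error alone.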

Additional observations from a re-analysis of the deposited data

How the results depend on the processing

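The 21 counts and medians were recomputed under 17 alternatives. Library size alone gave medians of −0.36 with CCF642, −0.32 with CCF642-34 and 0.030 between the compounds, the last of opposite sign. It gave 4 higher genes and 2 that fell at least 2-fold with CCF642-34, 2 lower and 7 higher genes between the compounds, and in the wider list 22 higher genes with CCF642, 20 with CCF642-34, and 11 lower and 19 higher between the compounds. The median with CCF642 was −0.26 with edgeR's quasi-likelihood test, and that with CCF642-34 was −0.25 with edgeR and −0.26 with DESeq2 on recovered reads, which found 3 wider genes higher between the compounds. The gene-wise linear model called 4 genes higher with CCF642-34, and 1 lower and 2 higher between the compounds, with 2 and 0 in the wider list. Over all genes it called 739 between the compounds, with 3408 at an unadjusted p under 0.05. The cause was not tested.

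Without each library in turn, the medians ranged from −0.27 to −0.23 with CCF642, −0.25 to −0.23 with CCF642-34 and −0.052 to 0.027 between the compounds, where the sign changed without CCF642 replicate 2 (0.020) or CCF642-34 replicate 2 (0.027). Genes that fell at least 2-fold ranged from 1 to 2 with CCF642 and 0 to 1 with CCF642-34. Between the compounds, 2 to 5 genes were lower and 1 to 5 higher, and 4 to 10 wider genes were higher. Kept under every alternative were 19 of 23 decreases and 4 of 7 increases with CCF642, 18 of 22 and 3 of 7 with CCF642-34, and between the compounds the decrease of NOP58 and 0 of 4 increases. Against DMSO, the sign changed for NOP58 with CCF642-34. Its value was −0.0012 with DESeq2's size factors, −0.0009 with DESeq2 on recovered reads and −0.085 with library size alone. Without each library NOP58 ran from −0.024 to 0.036. NOB1 with CCF642 changed to −0.050 with library size alone. Without each library, the sign also changed with CCF642 for UTP15 (−0.068 to 0.0081), PPAN (−0.50 to 0.13) and NPM1 (−0.045 to 0.032). PPAN did so with CCF642-34 too (−0.44 to 0.19). Between the compounds, several genes that were not called changed sign, such as NOP14 (0.037), BOP1 (0.026) and WDR74 (0.021) with library size alone.

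Whether replicate numbers pair the libraries is not given in the labels. The deviations of same-numbered libraries had correlations of −0.047, −0.077 and 0.111 over 9390 genes, which cannot settle it. With the replicate number as a block, 23 genes were lower and 7 higher with CCF642, 22 and 7 with CCF642-34, and 5 and 4 between the compounds. With 2 libraries per group, small differences between the compounds remain limited by replicate spread rather than by read depth alone.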
